A study of Mus musculus with 6 samples.

Results

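The genes described here are 10 imprinted genes of the mouse that act on growth, namely H19, Peg3, Mest, Grb10, Cdkn1c, Plagl1, Sgce, Peg10, Dlk1 and Impact. They were picked by name as known imprinted growth regulators, with earlier results of these data known. The reads carrying each name were counted in messenger RNA libraries of sorted Mvt1 cells. Of the 14769 gene names that carried at least 1 read, 4 belonged to these 10 genes, and 3 of the 10 genes had enough reads to be tested. Mvt1 cells are a line of mouse mammary carcinoma, labelled as mammary epithelial cancer cells of strain FVB/N, and it was derived from a tumour of a mouse with c-Myc and VEGF transgenes driven by the MMTV promoter, which both groups therefore share. The cells received no treatment other than staining for CD24, a surface protein anchored by a lipid, and were sorted by flow cytometry into CD24- and CD24+ cells. RNA came from 3 plates of adherent cells per group, so n = 3 throughout. No repeat of the sort is described, so the errors and p-values reflect differences between plates within a group, and a difference tied to CD24 cannot be told apart from any other difference between the sorted groups. Because FVB/N mice are inbred, the maternal and paternal copies carry the same sequence, and which parental copy was transcribed was not measured.

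Imprinted genes are transcribed mainly from the maternal or mainly from the paternal copy, a choice set by DNA methylation laid down in the egg or the sperm. They lie in clusters, and each cluster is controlled by an imprinting control region whose methylation differs between the parental copies. Many act on growth of the fetus and placenta, with paternally expressed genes such as Peg3, Mest, Plagl1, Peg10 and Dlk1 on one side and maternally expressed genes such as H19, Grb10 and Cdkn1c on the other. Several are switched off in most adult tissues.

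Each library held between 6491833 and 19100846 reads annotated to a gene, and CD24+ replicate 1 was the shallowest. Levels are given in CPM, the usual counts scaled to a common total of gene reads, adjusted by the TMM method. The epithelial label was checked against 5 markers. Krt8 and Krt18, which encode keratins of simple epithelium, were abundant in both groups, at 1229 ± 76 and 732 ± 36 CPM in CD24- cells against 596 ± 60.8 and 213 ± 17.1 in CD24+ cells (SD, n = 3). Both were lower in CD24+ cells by edgeR (log2 fold-change -1.04 and -1.78, adjusted p = 1.16e-05 and 1.9e-07). When each distinct sequence was counted once, these values were -0.46 and -0.88, and the call of Krt8 was lost (adjusted p = 0.0712 by edgeR). Krt18 kept its call there (adjusted p = 0.000959 by edgeR). Repeated reads of a sequence add nothing in that count, and whether this accounts for the smaller values was not tested. Krt19, a further keratin, was also lower in CD24+ cells, with means of 12.1 and 3.21 CPM (adjusted p = 9.6e-06 by edgeR). Cdh1 and Epcam, which encode adhesion proteins of epithelial cells, had only 2 and 6 reads in all 6 libraries together. Between libraries of a group, the chi-square per degree of freedom was 1.75 for CD24- replicates 1 and 2 and between 9.69 and 15.9 for every other pair, so CD24- replicate 3 and all 3 CD24+ libraries differed from their fellows well beyond sampling noise. Values without a library are given where they change a result.

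Of the 10 genes, Peg3 was the only member whose level differed between the groups by the test, and it was lower in CD24+ cells. Peg3 encodes a large zinc finger protein that binds DNA and is transcribed from the paternal copy. The gene lies on the minus strand of chromosome 7 of GRCm38, from 6703892 to 6730431, and Usp29 starts a short distance away and runs in the opposite direction, from 6730578 to 6967219. Part of the interval between the starts is shown because both genes had fewer reads in CD24+ cells. RefSeq places this stretch of GRCm38.p6 at chr7:6730463-6730558, given on the plus strand, where capitals mark CCAAT, the letters bound by the factor NF-Y.
Peg3 to Usp29: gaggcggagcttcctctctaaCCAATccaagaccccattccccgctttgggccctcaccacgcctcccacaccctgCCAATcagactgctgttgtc
The stretch held 2 copies of CCAAT on the strand shown and 0 on the other, and 3 CpG dinucleotides. At least 1 CCAAT, on either strand, was present in 37.4% of all 32851 RefSeq promoter windows, each spanning 250 bases before and 50 after a gene start. The windows of Peg3 and Usp29 overlap for most of their length, so a match in both may be the same letters. Each held 1 copy of TGACGTCA, the full cyclic AMP response element, which 1.79% of windows held. Neither window contained GCCATNTT, a YY1 motif found in 6.05% of windows, or TGCCGC, the letters recognised by Zfp57, found in 11.6%. A match is a description of letters, and binding was not measured.

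Peg3 had 650, 654 and 907 reads in CD24- replicates 1, 2 and 3, against 29, 135 and 97 in CD24+ replicates 1, 2 and 3. Scaled to gene reads, these were 68.4, 62 and 102 CPM in CD24- libraries, against 4.56, 7.62 and 5.08 in CD24+ libraries. Every CD24- library was thus far above every CD24+ library, and CD24- replicate 3 was the highest. Without that library the log2 fold-change given next was -3.44. The means were 77.5 ± 21.6 and 5.75 ± 1.64 CPM (SD, n = 3 each). The log2 fold-change of CD24+ over CD24- cells was -3.70 (standard error (SE) 0.23, 95% interval -4.21 to -3.18), with an adjusted p of 9.13e-07 by edgeR's quasi-likelihood test with Benjamini-Hochberg adjustment over 11125 genes. In this comparison 46.1% of all genes tested were called at an adjusted p below 0.05, and 22.3% were called lower in CD24+ cells, so a call alone does not set Peg3 apart. Its size did place it low in the order of all genes, since 0.548% of the genes tested had a lower log2 fold-change. Peg3 was also the 1 tested member whose values did not overlap between the groups, which held for 57.3% of all genes tested, with CD24+ cells below in 27.6% and above in 29.7%. In bulk libraries, fewer cells expressing Peg3 and less Peg3 RNA per cell cannot be told apart.

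**Figure D1:**
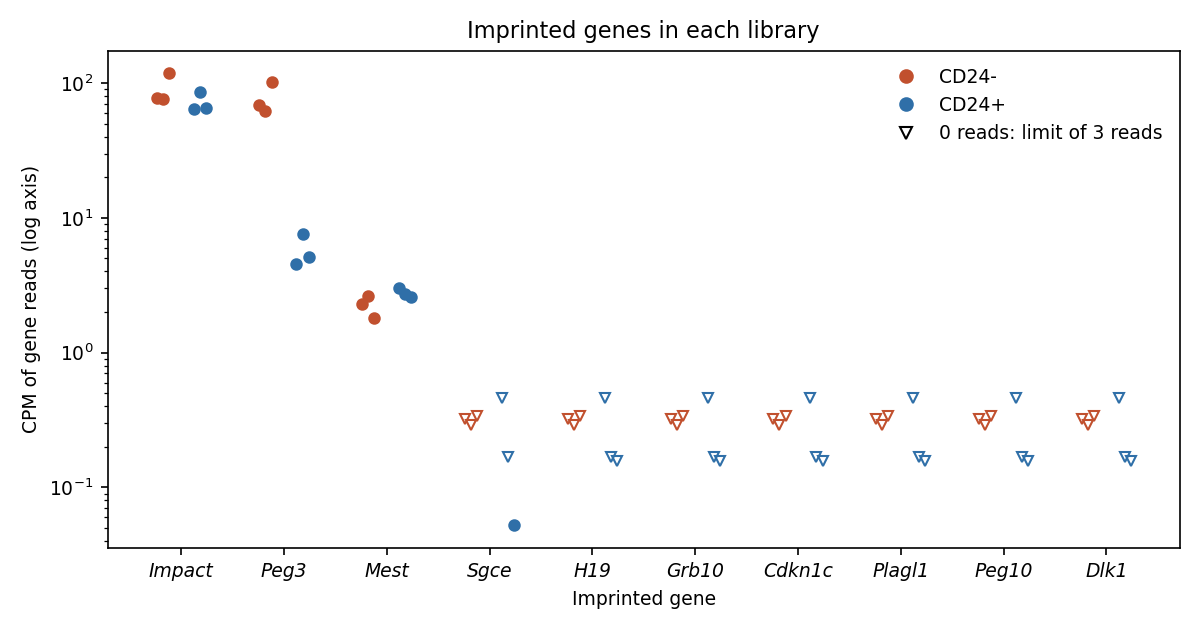
Level of each of the 10 genes in each library, in CPM on a logarithmic axis, with CD24- and CD24+ libraries as separate points and with open triangles at the limit of 3 reads for libraries with 0 reads. Peg3 separates the groups (62 to 102 against 4.56 to 7.62 CPM), Impact and Mest overlap, and the other 7 genes had 0 reads except for 1 read of Sgce.

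The difference in Peg3 was not carried by a single stretch of its RNA. Of the reads named Peg3, 98.5% matched a Peg3 transcript of GENCODE M21 exactly, and none matched a transcript of another gene. The longest coding transcript is 8694 nt long and has 9 exons, of which the last spans 7840 nt and holds most of the coding sequence of 4713 nt. Reads of any name, or of none, that match only Peg3 were then used. Of these, 3093 reads from 2285 distinct sequences could be placed on that transcript. In the sense direction ran 49.7% of the placed reads, as the kit does not mark strand. In each of 17 windows of 500 nt the lowest CD24- library exceeded the highest CD24+ library. The ratio of the CD24- to the CD24+ mean ranged from 7.49 to 21 among these windows, with a median of 12.6. Within the coding sequence there were 455, 458 and 624 reads in CD24- libraries and 21, 96 and 63 in CD24+ libraries. After the coding sequence there were 316, 361 and 457 reads in CD24- libraries and 23, 71 and 71 in CD24+ libraries.

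**Figure D2:**
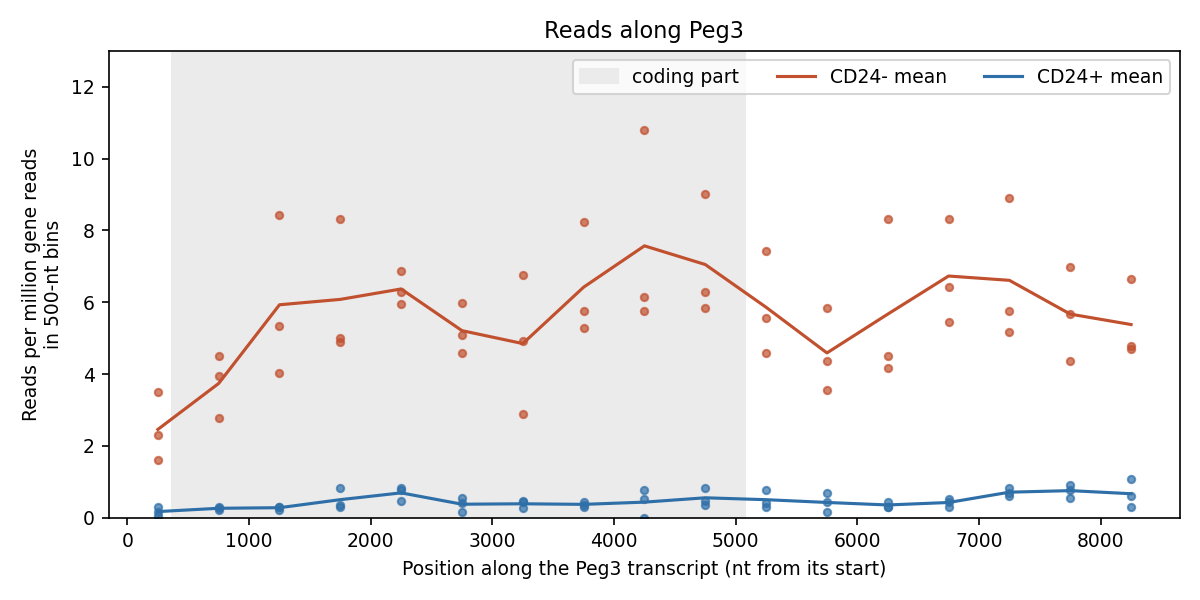
Level in CPM, without TMM scaling, in consecutive 500-nt windows along the longest coding Peg3 transcript, by library and with the mean of each group. Reads of any name, or of none, that match only Peg3 are counted. The CD24- libraries lie above the CD24+ libraries in 17 of 17 windows, by a ratio of means of 7.49 to 21.

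The 3 coding sequences of Peg3 that were read most often are shown to give the form of the measurement, in which each distinct 47-nt sequence carries a count. All lie in exon 9 and are printed in the sense of Peg3, on the minus strand of GRCm38, at chr7:6710256-6710302, chr7:6709967-6710013 and chr7:6709600-6709646 in this order. Reads A and B were counted in the files as the reverse complement of the letters shown.
Peg3 read A: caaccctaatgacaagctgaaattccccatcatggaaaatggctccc
Peg3 read B: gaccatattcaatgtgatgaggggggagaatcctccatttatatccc
Peg3 read C: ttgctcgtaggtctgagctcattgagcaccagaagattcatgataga
Read A was counted 1, 3 and 2 times in CD24- replicates 1, 2 and 3 and 0 times in each CD24+ library. Read B was counted 0, 4 and 1 times in CD24- libraries and 0, 1 and 0 times in CD24+ libraries. Read C was counted 4, 0 and 1 times in CD24- libraries and 0, 0 and 1 times in CD24+ libraries. Each had 6 reads in all, so the level of Peg3 rests on many distinct sequences with few copies each.

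Some markers of other cell types also differed between the groups. The summed level of 5 macrophage and leukocyte markers was 46.7 to 80.5 CPM in CD24- libraries and 7.17 to 9.44 CPM in CD24+ libraries. Most of it was Cd68, which encodes a lysosomal membrane protein, at 64.6 ± 18.4 and 8.15 ± 1.25 CPM. Itgam had 36, 47 and 29 reads in CD24- libraries and 0, 0 and 1 in CD24+ libraries, while the defining marker Ptprc had 2 reads in all, both in a CD24+ library, and Adgre1 had 0. The summed level of 4 endothelial markers was 2.25 to 3.98 CPM in CD24- libraries and 0.681 to 1.89 CPM in CD24+ libraries. Of these Cdh5 was lower in CD24+ cells by edgeR (1.85 ± 0.374 and 0.247 ± 0.196 CPM, adjusted p = 0.000278), Tek did not pass the test (adjusted p = 0.375), and Pecam1 and Kdr had 9 and 2 reads in all. Fibroblast markers, of which Lum was at 0 and 4 of 5 had reads, moved the other way, with 5.75 to 10.4 CPM in CD24- libraries and 14.9 to 20.3 CPM in CD24+ libraries. Most of it was Pdgfra, at 6.23 ± 2.14 and 11.2 ± 2.64 CPM, whose values overlapped between the groups. Pdgfra was called higher in CD24+ cells (adjusted p = 0.0165 by edgeR), as were Col1a1, Col1a2 and Dcn at lower levels. Most reads of the 4 basal or myoepithelial markers were of Acta2, a smooth muscle actin gene also read in contractile cells of other kinds, with 389 reads in all against 54 of Trp63, and the markers summed to 0.105 to 1.04 CPM in CD24- libraries and to 6.49 to 14 CPM in CD24+ libraries, where Krt5 and Krt14 had 1 and 3 reads in all. The 4 muscle markers, with Myod1 and Myog at 0, summed to at most 0.284 CPM in CD24- libraries and 1.89 CPM in CD24+ libraries. The 4 adipocyte markers, with Plin1 and Lep at 0 by name, summed to at most 0.225 and 0.282 CPM, and 7 reads without the name Plin1 matched only its transcripts. The part of these cell types in the level of Peg3 was not tested.

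Usp29, which encodes a deubiquitinating enzyme and is transcribed from the paternal copy on the other side of the shared promoter, was also lower in CD24+ cells. Its name was carried by 26, 17 and 18 reads in CD24- libraries and by 7, 11 and 14 reads in CD24+ libraries. These corresponded to 2.12 ± 0.568 and 0.818 ± 0.251 CPM, without overlap between the groups. The log2 fold-change was -1.48 (SE 0.34, adjusted p = 0.00517 by edgeR). Of the 93 reads named Usp29, 59 matched none of its GENCODE transcripts. When reads of any name that match only Usp29 transcripts were counted instead, CD24- libraries had 28, 19 and 16 reads and CD24+ libraries 0, 1 and 0. Of these, 13, 8 and 7 in CD24- libraries were named as repeats, and 0 in each CD24+ library. Matches were sought among transcripts only, so an origin in repeat copies elsewhere was not tested. Counting by transcript match was chosen after the data were seen. The ratio of CD24- to CD24+ cells, per gene read, was then 95.2, with a 95% exact interval of 16.5 to 3820 that covers counting error only, not the spread between libraries. RPKM gives these counts scaled to gene reads and to the length in kb of gene-specific sequence. That length was 13.3 kb for Peg3 and 15.5 kb for Usp29. It pools all transcripts of a gene and includes exon junctions, which the mapping missed, so levels of different genes compare only roughly. In RPKM, Usp29 stood at 0.143 ± 0.0436 and Peg3 at 7.54 ± 1.95 in CD24- cells, against 0.00121 ± 0.0021 and 0.608 ± 0.103 in CD24+ cells. Zim1, an imprinted zinc finger gene of the same cluster, had 6 reads by name, none of which matched its transcripts, and Zim2 and Zim3 had none.

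Lower levels were found for some but not all genes around Peg3. Among the 5 nearest tested genes on each side, 3 were lower in CD24+ cells by the test and 1 was higher, beside 22.3% lower and 23.8% higher over all genes tested. Their median log2 fold-change was -0.17, beside 0.02 over all genes. Of the 10 nearest tested genes around Mest, 5 were lower and 1 was higher (median -0.27), and around Impact 4 were lower and 3 higher (median 0.05). Zfp28 and Zfp667, both zinc finger genes, lie at -0.316 and -0.405 Mb from Peg3, on the side away from Usp29. Zfp28 had a log2 fold-change of -1.08 (SE 0.24, adjusted p = 0.00428 by edgeR), with means of 6.35 CPM in CD24- libraries and 2.9 in CD24+ libraries. Zfp667 had a log2 fold-change of -0.95 (SE 0.27, adjusted p = 0.0149 by edgeR), with means of 4.29 and 2.31 CPM. This call was lost without CD24- replicate 1, CD24- replicate 2 or CD24+ replicate 3 (adjusted p = 0.06, 0.0747 and 0.0663 by edgeR). It was also lost when each distinct sequence was counted once (adjusted p = 0.0511 by edgeR). Beyond them, Zfp444, Zfp787 and Rasl2-9 did not pass the test, with log2 fold-changes of -0.21, -0.24 and 0.23. Without CD24- replicate 3, Zfp444 and Rasl2-9 passed it (adjusted p = 0.0279 and 0.0267 by edgeR). On the other side Clcn4-2, which encodes a chloride transporter, was higher in CD24+ cells, with a log2 fold-change of 0.50 (adjusted p = 0.00582 by edgeR). The adjusted p-values of 5730403M16Rik, Zfp418 and BC023179 were 0.886, 0.518 and 0.721. Counted by name, these neighbours had log2 fold-changes above that of Peg3, but by reads matching only its own transcripts Usp29 had 63 reads in CD24- libraries and 1 in CD24+ libraries. Of these reads, 28 were named as repeats.

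**Figure D3:**
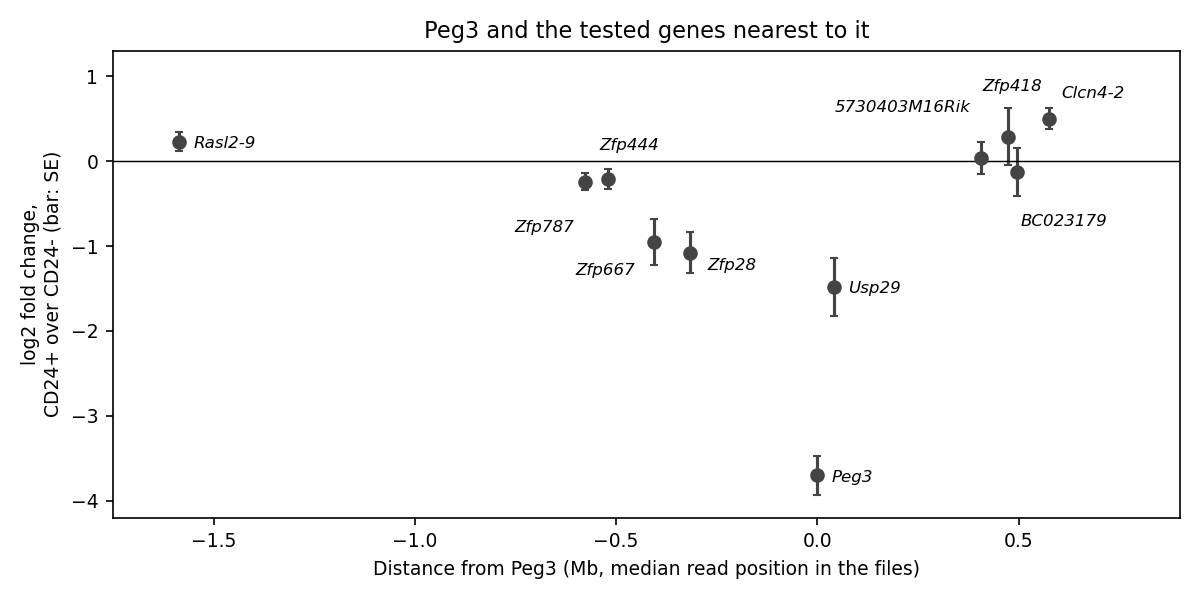
Log2 fold-change of CD24+ over CD24- cells, with its SE as a bar, for Peg3 and the 5 nearest tested genes on each side, plotted against the distance from Peg3 in Mb, taken between median read positions. Counted by name, Peg3 lies at -3.70 and its neighbours between -1.48 and 0.50.

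Impact, which encodes an inhibitor of the kinase GCN2 and is transcribed from the paternal copy in the mouse, was measured in all libraries and did not pass the test. The gene lies on chromosome 18 of GRCm38, from 12955852 to 12992950 on the plus strand. It had 735, 801 and 1051 reads in CD24- libraries and 410, 1529 and 1256 reads in CD24+ libraries. The levels were 77.3, 75.9 and 118 CPM in CD24- libraries, against 64.5, 86.3 and 65.8 in CD24+ libraries. The groups overlapped, and again CD24- replicate 3 was the highest. The means were 90.6 ± 24.2 and 72.2 ± 12.2 CPM (SD, n = 3 each). The log2 fold-change was -0.32 (SE 0.18, 95% interval -0.71 to 0.07, adjusted p = 0.164 by edgeR), and it was -0.08 without CD24- replicate 3. In RPKM, which compares genes only roughly, Impact stood at 15.9 ± 3.87 in CD24- cells and Peg3 at 7.54 ± 1.95. In CD24+ cells Impact stood at 13.2 ± 2.43 and Peg3 at 0.608 ± 0.103. Of the reads named Impact, 88.5% matched its transcripts.

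Mest, which encodes a hydrolase-like protein and is transcribed from the paternal copy, was close to the lower limit of the test. It lies on the plus strand of chromosome 6 of GRCm38, from 30723547 to 30748465, and its 3' end overlaps Copg2, which runs on the minus strand from 30747554 to 30896794. Reads named Mest numbered 22, 28 and 16 in CD24- libraries and 19, 48 and 49 in CD24+ libraries. The levels were 2.31, 2.65 and 1.8 CPM and 2.99, 2.71 and 2.57 CPM, so the ranges overlapped. The log2 fold-change was 0.26 (SE 0.24, 95% interval -0.28 to 0.79, adjusted p = 0.408 by edgeR).

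The libraries carry no strand, and few of these reads could be assigned to Mest rather than Copg2. Of the 182 reads named Mest, 119 matched a Mest transcript, and 99 of these also matched Copg2, which encodes a coat protein of transport vesicles. Reads that matched Mest alone numbered 1, 3 and 3 in CD24- libraries and 3, 5 and 5 in CD24+ libraries, 20 in all. In RPKM, Mest stood at 0.0764 ± 0.0382 in CD24- cells and 0.105 ± 0.0348 in CD24+ cells, while Copg2 stood at 12.1 ± 0.265 and 12.2 ± 0.681. Copg2 itself had a log2 fold-change of 0.03 (adjusted p = 0.788 by edgeR). The interval of the Mest log2 fold-change, -0.28 to 0.79, rests on reads of which most also match Copg2 or match no Mest transcript.

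The other 7 genes were silent or nearly so in both groups. H19, a long noncoding RNA transcribed from the maternal copy, had 0 reads in each of the 6 libraries. So did Grb10, an adaptor protein that restrains insulin signalling, and Cdkn1c, the cyclin-dependent kinase inhibitor p57. Peg10, a gene derived from a retrotransposon, and Dlk1, a membrane protein related to the Notch ligands, also had 0 reads. Plagl1, which encodes a zinc finger protein that slows the cell cycle, had 0 reads by name. Sgce, which encodes epsilon-sarcoglycan and shares a promoter region with Peg10, had 1 read, in CD24+ replicate 3, and that read matched no Sgce transcript. Reads can carry other names than the current symbol, so all sequences were also matched to the transcripts of these genes whatever their name. This gave 1 read for Plagl1, in CD24+ replicate 3, and 0 for H19, Grb10, Cdkn1c, Sgce, Peg10 and Dlk1.

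A count of 0 allows a level of up to 3 reads. In single libraries that limit lay between 0.157 and 0.462 CPM, here without TMM scaling. Over the 28689170 gene reads of CD24- cells it was 0.105 CPM, and over the 43357761 gene reads of CD24+ cells it was 0.0692 CPM. These limits cover counting error only and say nothing about reads lost to exon junctions. Exact matching also misses reads with errors or with differences from the reference genome. No fold-change is given for a gene at or under the limit in both groups.

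These genes lie in several clusters of the GRCm38 genome. H19 lies on chromosome 7 from 142575529 to 142578143 on the minus strand and is annotated as a long intergenic noncoding RNA, and Cdkn1c lies on chromosome 7 from 143458339 to 143461050 on the minus strand. Sgce and Peg10 are neighbours on chromosome 6, Sgce from 4674350 to 4747207 on the minus strand and Peg10 from 4747306 to 4760517 on the plus strand. Grb10 lies on chromosome 11 from 11930508 to 12038683 on the minus strand. Plagl1 lies on chromosome 10 from 13060504 to 13131694, and Dlk1 on chromosome 12 from 109452823 to 109463336, both on the plus strand. The silent and the measured members were therefore not separated by chromosome, since chromosome 7 held Peg3, H19 and Cdkn1c.

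Windows around the starts of silent members overlapped in CpG content with those of Peg3 and Mest. In the RefSeq windows of 300 bases, for which the median over all promoters was 7 CpG dinucleotides, the Peg3 window held 13 and the 3 Mest windows 8, 17 and 17, while the Usp29 window held 17. The silent genes ranged from 9 in the Dlk1 window to 45 in a Grb10 window, with 26 in the Plagl1 window. Of all promoters, 98.1% held fewer than that Grb10 window and 54.2% fewer than the Dlk1 window. Methylation of these windows was not measured. Only 5 of the 10 genes are compared. Windows on chromosome 18 were left out of this count, so Impact, the member with the most reads, is not among them.

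Genes that share a cluster with the silent members were not all silent. Next to Sgce and Peg10, Casd1, an enzyme that acetylates sialic acid, stood at 120 ± 8.33 CPM in CD24- cells against 100 ± 2.74 in CD24+ cells, with a log2 fold-change of -0.26 (SE 0.08, adjusted p = 0.0246 by edgeR). This call was lost without CD24- replicate 1, CD24- replicate 3 or CD24+ replicate 2 (adjusted p = 0.0661, 0.0605 and 0.0596 by edgeR). It was also lost with a replicate block, with each distinct sequence counted once and with transcript matches counted (adjusted p = 0.057, 0.111 and 0.117 by edgeR). Pon3, which encodes a lactonase, was higher in CD24+ cells, at 46.4 ± 1.55 and 66.5 ± 12.9 CPM, with a log2 fold-change of 0.51 (SE 0.13, adjusted p = 0.00843 by edgeR). Pon2 of the same family had a log2 fold-change of -0.06 (adjusted p = 0.608 by edgeR). Asb4 had 5 reads in all and Tfpi2 none, while Calcr had 1 and Ppp1r9a 3 by name, which matched none of their transcripts. In the cluster of Cdkn1c, Nap1l4 was lower in CD24+ cells, with a log2 fold-change of -0.22 and an adjusted p of 0.0484 by edgeR, a call that was lost on leaving out any 1 of the 6 libraries (adjusted p 0.0503 to 0.12). Cd81, Tssc4 and Osbpl5 had log2 fold-changes of -0.24, 0.13 and 0.04 and adjusted p-values of 0.0573, 0.349 and 0.78 by edgeR, and without CD24- replicate 3 Cd81 passed the test (adjusted p = 0.0124). The placental growth regulator Phlda2 had 21 reads in all, Tspan32 22 and Slc22a18 5 by name, of which 11 and 3 respectively matched no transcript of Tspan32 and Slc22a18.

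The growth factor Igf2, which shares its control region with H19, had 0 reads by name and 0 that matched its transcripts. Around Grb10, Ddc had 3 reads and Cobl 6 by name, of which 3 and 2 respectively matched no transcript of these genes. In the cluster of Dlk1, Dio3 had 1 read, and no read carried the name Meg3, Rian, Mirg, Rtl1 or Begain. Transcript matching added 3 reads for Meg3, 3 for Rian, 4 for Mirg and 3 for Begain over the 6 libraries, and 0 for Rtl1. Klf14, near Mest, had none by either count. For Kcnq1ot1, the long noncoding RNA of the Cdkn1c cluster, 581 reads matched its transcripts, but none carried its name, and 298 were named Kcnq1 and 270 as repeats. They amounted to 8.88 ± 1.94 CPM, without TMM scaling, in CD24- cells and 6.51 ± 3.67 in CD24+ cells, with ranges that overlapped.

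**Figure D4:**
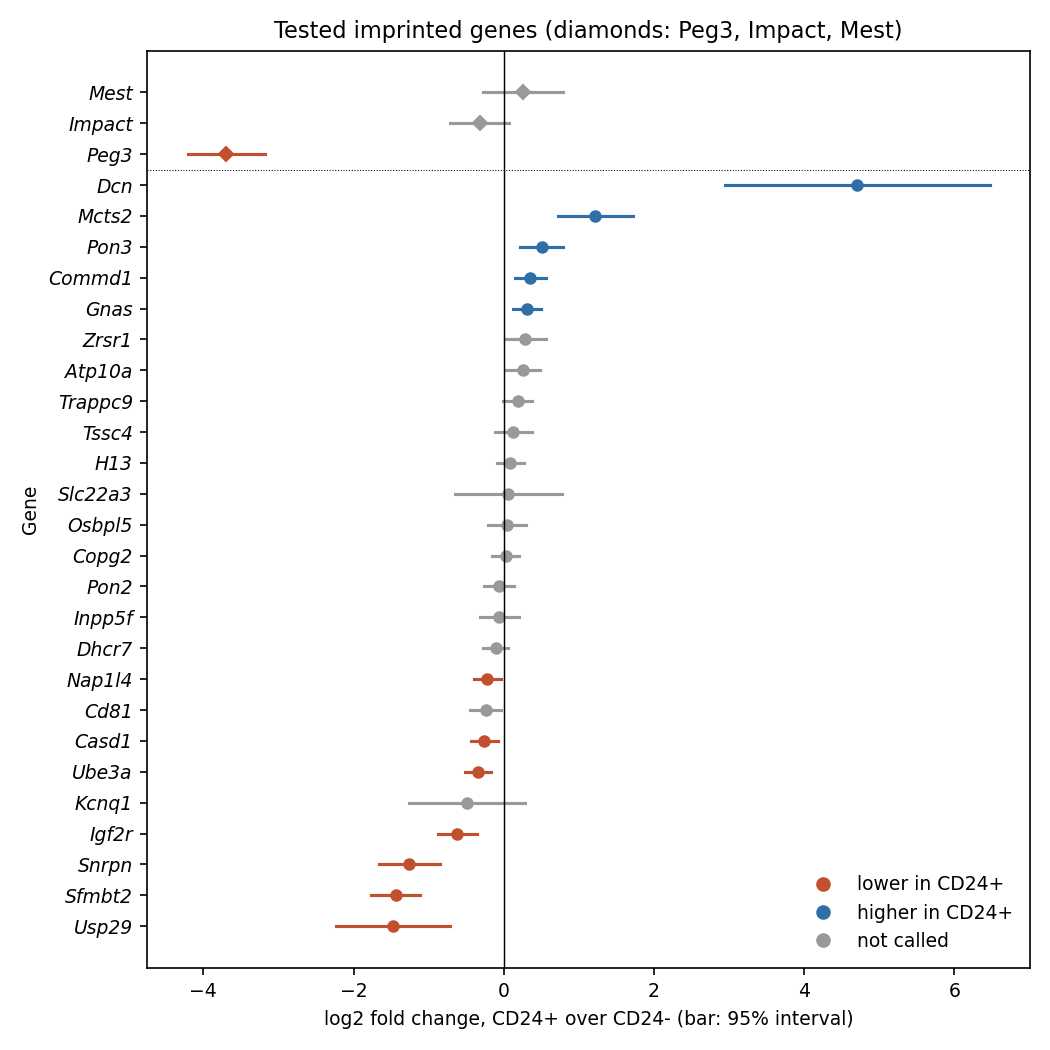
Log2 fold-change of CD24+ over CD24- cells with its 95% interval for the tested members (diamonds) and the other listed genes tested (circles). The other listed genes are known as imprinted or lie in the members' clusters. Colour shows whether a gene was called lower, higher or neither. Peg3 lies at -3.70, Impact at -0.32 and Mest at 0.26, and the other listed genes span -1.48 to 4.71 with a median of 0.03.

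The 65 genes of a further list, written from general knowledge but with earlier results of these data known, moved in both directions. The list holds genes known as imprinted in the mouse or lying in the members' clusters, so not every gene in it need be imprinted. Of the 65 genes, 30 lie in those clusters. By name, 44 of the 65 had reads, and 25 could be tested, 9 of them in the clusters. Kcnq1, also among the 25, had 312 reads by name. Of these, 298 matched only transcripts of Kcnq1ot1, so its test cannot be assigned to Kcnq1 itself. Among the 16 tested outside the clusters, 4 were called higher and 4 lower. Over all 25 genes the test called 5 higher and 7 lower in CD24+ cells, while 13 did not pass, beside 23.8% higher and 22.3% lower among all genes tested. When each distinct sequence was counted once, 7 were called in place of 12, and over all genes 3697 in place of 5130. The median log2 fold-change of the 25 genes was 0.03, beside 0.02 over all genes. Outside the clusters of the members the shifts past the test with the largest size were those of Dcn, Sfmbt2, Snrpn, Mcts2 and Igf2r.

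Dcn, the proteoglycan decorin, imprinted in the placenta and also in the list of fibroblast markers, had 1, 1 and 0 reads in CD24- libraries and 13, 18 and 59 in CD24+ libraries. The ratio of CD24+ to CD24- cells per gene read was 29.8, with a 95% exact interval of 8.01 to 250 that covers counting error only, and the adjusted p by edgeR was 0.000787. Without CD24+ replicate 3 it had too few reads to be tested. Mcts2, a translation factor gene copied by retroposition from Mcts1, whose reads it may share, was higher in CD24+ cells, at 2.34 ± 0.483 and 5.44 ± 0.492 CPM (log2 fold-change 1.22, SE 0.23, adjusted p = 0.00143 by edgeR). The other 3 genes were lower in CD24+ cells. Sfmbt2, a Polycomb group gene, fell from 85.8 ± 17.1 to 31.4 ± 3.55 CPM (log2 fold-change -1.44, SE 0.15, adjusted p = 2.8e-05 by edgeR). Snrpn, which encodes a splicing protein and overlaps Snurf, fell from 13.6 ± 2.4 to 5.83 ± 0.763 CPM (log2 fold-change -1.26, SE 0.18, adjusted p = 0.000279 by edgeR). Igf2r, the receptor that clears IGF2 from the cell surface, fell from 740 ± 101 to 483 ± 55.2 CPM (log2 fold-change -0.62, SE 0.12, adjusted p = 0.00179 by edgeR).

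Factors that maintain imprints were also measured, because they act on the control regions of the members. They were listed with earlier results of these data known. Of 8 factors listed, 6 had reads by name, 4 were lower in CD24+ cells, none was higher and 2 did not pass the test, beside 22.3% lower and 23.8% higher among all genes tested. Their median log2 fold-change was -0.34, beside 0.02 over all genes. Zfp57, the zinc finger protein that keeps methylation on imprinting control regions, had 66.1, 64.6 and 62.8 CPM in CD24- libraries and 15.9, 10.9 and 16 CPM in CD24+ libraries. The groups were far apart, and the CD24+ libraries differed more among themselves than the CD24- libraries did, relative to their mean. The means were 64.5 ± 1.65 and 14.3 ± 2.91 CPM, and the log2 fold-change was -2.20 (SE 0.14, adjusted p = 1.04e-06 by edgeR). The shifts of the other called factors were smaller. Ehmt2, a histone H3 lysine methyltransferase, had a log2 fold-change of -0.40 (adjusted p = 0.00221 by edgeR). Zfp445, a zinc finger protein with a role like that of Zfp57, had -0.35 (adjusted p = 0.00814 by edgeR), and Dnmt1, the maintenance DNA methyltransferase, had -0.34 (adjusted p = 0.0137 by edgeR). When each distinct sequence was counted once, both these calls were lost, Zfp445 having -0.22 (adjusted p = 0.0786) and Dnmt1 -0.25 (adjusted p = 0.051 by edgeR). Trim28, the co-repressor that Zfp57 recruits, and Uhrf1, which brings Dnmt1 to replicated DNA, had -0.07 and -0.08 (adjusted p = 0.519 and 0.558 by edgeR). No read carried the name Ctcf, the insulator protein of the H19 control region, but 12166 reads named by a RefSeq accession matched only its transcripts. The counts under that accession stood at 175 ± 14.3 and 175 ± 21.5 CPM (log2 fold-change 0.01, adjusted p = 0.939 by edgeR). Dppa3 had 0 reads by either count.

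**Figure D5:**
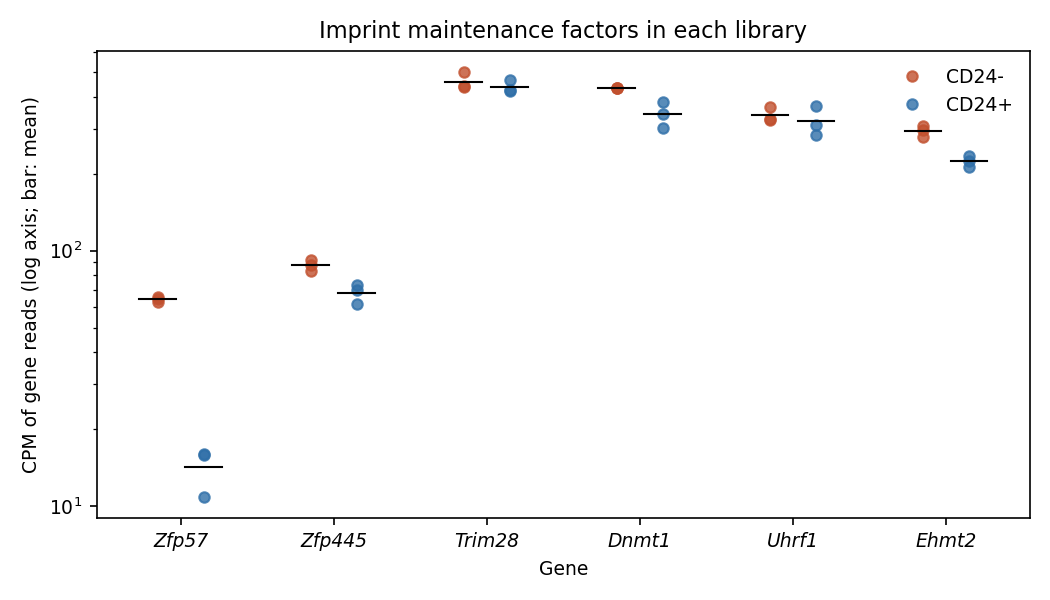
Level of the imprint maintenance factors in each library, in CPM on a logarithmic axis, with CD24- and CD24+ libraries as separate points and group means as black bars. Zfp57 lies at 62.8 to 66.1 CPM in CD24- libraries and at 10.9 to 16 CPM in CD24+ libraries.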

How the data were processed

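Per the labels and the study's methods, the authors sequenced TruSeq v2 libraries as 51-nt single reads, trimmed 2 nt from each end, collapsed identical 47-nt reads, mapped them by exact match (mm9 in the submitters' processing notes) and gave each 1 annotation. The deposited counts give the frequency of every mapped sequence per library, with no normalization. For the mapping tool and the annotation: not given in the sources used here. Between 71.8% and 74.3% of mapped reads named a gene, and the others were left out.

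Counts were summed per gene name and tested with edgeR 4.0.16 (filterByExpr, TMM, quasi-likelihood test, Benjamini-Hochberg threshold 0.05) in R 4.3.3. Sequences were also matched exactly to GENCODE M21 transcripts (GRCm38) in Python 3.11.15. The 131 names that are RefSeq accessions were not renamed. Distances between genes come from positions in the files, and coordinates from GENCODE or RefSeq. All 10 members, the listed genes in their clusters, and the 5 called imprinted genes outside them with the largest absolute log2 fold-change are named. The members and lists were chosen with earlier results of these data known. Scripts were tested on simulated data. Alternatives were DESeq2 1.42.0, other scalings, filters and counting rules, a quantile-normalised estimate tested with limma 3.58.1, a replicate block and each library left out.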

Additional observations from a re-analysis of the deposited data

Results flagged for a closer look

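Reads outside the gene annotations were looked at because the tests use named reads only. A total of 741 reads without any annotation matched Peg3 transcripts and no other gene, with 174, 212 and 255 in the 3 CD24- libraries against 17, 39 and 44 in the 3 CD24+ libraries. They thus had the same direction as the reads named Peg3, in all 6 libraries without overlap per gene read. Those that lie on the longest coding transcript are already part of the windows along it. A further 1154 reads matched only Peg13, a paternally expressed noncoding RNA that lies within an intron of Trappc9. None carried its name, and 89 were named as repeats. The other 1065 carried a noncoding annotation, and which RNA it stands for is not known here. The 1154 reads came to 8.1, 10.2 and 5.63 CPM, without TMM scaling, in CD24- libraries and 16.5, 22.1 and 22.1 in CD24+ libraries, or 7.97 ± 2.27 and 20.2 ± 3.25 (SD, n = 3 each). The mean was 2.54-fold higher in CD24+ cells, and the two-sided exact permutation p of 0.1 is the smallest that 3 against 3 libraries can give. Peg13 was singled out after its values were seen. Trappc9 itself had a log2 fold-change of 0.19 (adjusted p = 0.107 by edgeR). Airn, also without a read by name, had 498 reads that matched only its transcripts, 395 of them named as repeats. Of these 395, 298 carried the name of the repeat RMER19B. The libraries carry no strand, so RNA transcribed in the other direction would be counted here too. The 498 reads came to 5.7 ± 0.274 CPM, without TMM scaling, in CD24- libraries and 7.48 ± 1.05 in CD24+ libraries. The exact permutation p was 0.1 for Airn too. It was also 0.1 for Rian and Mirg, which had 3 and 4 such reads in all, too few to give a direction.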

How the results depend on the processing

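Peg3 was the 1 member called under every alternative, with log2 fold-changes of -3.98 to -3.39, and of -3.98 to -3.44 with each library left out in turn. Impact ranged from -0.48 to -0.08 and Mest from 0.12 to 0.39 with a library left out. Mest had too few reads for the test under a minimum of 5 CPM in 3 libraries and when transcript matches were counted, and its quantile-normalised estimate was -0.11. Over all genes, 4069 to 5358 were called with a library left out, against 5130, and 3697 when each distinct sequence counted once. Of the other listed genes, imprinted or in the members' clusters, 12 were called. The number was 10 to 12 with a library left out, 14 by DESeq2 and by the quantile-normalised estimate, and 7 when each distinct sequence counted once. In that count Zfp445 and Dnmt1 were no longer called (adjusted p = 0.0786 and 0.051 by edgeR), and the cause was not tested. Krt8 and Ube3a also lost their calls there (0.0712 and 0.0781). Over the 38 genes run under 14 alternatives, of which the count by transcript match changed the reads of members and their cluster genes only, and leaving aside settings in which a gene had too few reads, 24 calls were lost, the others being 10 of Nap1l4, 6 of Casd1 and 4 of Zfp667. A call was gained 7 times, 4 of them by Cd81. Usp29, Mcts2, Dcn, Zfp28 and Zfp667 could not be tested under the 5 CPM minimum. Dcn had 1.46 in the quantile-normalised estimate, to which 10 is added before the log. No called value of the genes run changed direction. Same-numbered libraries correlated at 0.0132, -0.271 and -0.323 in their deviations from group means, so the numbers do not pair them. A replicate block gave 4493 calls in all, 10 among the other listed genes and -3.72 for Peg3. Depth limits what can be said of the silent members.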

Other observations

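Other genes of the Snrpn cluster were also read. Ndn and Mkrn3, both paternally expressed there, had too few reads for the test, and they are named after their values were seen. Ndn, which encodes necdin, had 1, 1 and 0 reads in CD24- libraries and 3, 13 and 10 in CD24+ libraries, a ratio per gene read of 8.6 (95% exact interval 2.15 to 74.8). Mkrn3, a ubiquitin ligase gene, had 0, 1 and 0 reads in CD24- libraries and 4, 13 and 16 in CD24+ libraries, a ratio of 21.8 (interval 3.66 to 888). These intervals cover counting error only, not the spread between libraries. Without a filter on low counts, edgeR gave them adjusted p-values of 0.00857 and 0.00121. Peg12, of the same cluster, had 0 reads in each CD24- library and 0, 5 and 1 in CD24+ libraries (adjusted p = 0.136 by edgeR without the filter), and Magel2 had 0. Snurf had 0 reads by name and 0 that matched it alone. Because it overlaps Snrpn and a read carries 1 name, these counts cannot tell whether Snurf was silent. Atp10a stood at 100 ± 11.2 and 120 ± 10.4 CPM and did not pass the test (log2 fold-change 0.26, adjusted p = 0.06 by edgeR). Ube3a, the ubiquitin ligase gene of the same cluster, stood at 195 ± 8.25 CPM in CD24- libraries against 154 ± 6.63 in CD24+ libraries (log2 fold-change -0.34, adjusted p = 0.00437 by edgeR), a call that was lost when each distinct sequence was counted once (log2 fold-change -0.22, adjusted p = 0.0781).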
